A study of Mus musculus with 4 samples.

Results

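The nuclear genes of the mitochondrial respiratory chain were followed in sorted B cells of the cervical lymph nodes, taken from NOD.B10 mice and from BL/10 control mice. Members were taken by gene symbol: every row whose symbol begins with Nduf, Uqcr, Atp5 or Cox4 to Cox8, together with Sdha, Sdhb, Sdhc, Sdhd and Cyc1. The rule found 93 of the 23418 genes in the table, 43 for complex I, 4 for complex II, 9 for complex III, 20 for complex IV and 17 for complex V. NOD.B10 is an NOD-derived strain with the H2 region of the C57BL/10 strain, and it develops gland inflammation like that of Sjögren's disease. The labels give a strain but no treatment, age or pooling of animals for either group, and each strain has 2 libraries. Whether the 2 libraries of each strain stem from different animals is not labelled, so p-values reflect only the spread between these libraries, which may be technical.

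The respiratory chain sits in the inner mitochondrial membrane. Complex I takes electrons from NADH and complex II from succinate, complex III passes them from ubiquinol to cytochrome c, and complex IV passes them to oxygen, while complexes I, III and IV pump protons. Complex V, the ATP synthase, lets the protons flow back through its membrane part, Fo, and makes ATP in its catalytic part, F1. A few central subunits are encoded by the mitochondrial genome, and all the genes described here are the nuclear ones. Resting B cells use the chain at a low rate, and activated B cells raise oxidative phosphorylation.

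Library totals were 19328803 and 25375678 reads in NOD.B10 and 29372751 and 26150794 reads in BL/10. The members took 0.358% and 0.368% of the reads in NOD.B10 and 0.365% and 0.419% in BL/10. Of 9 B cell markers, 1 was called higher in NOD.B10 and 8 were not called, with summed levels of 9950 and 10666 CPM, the read count scaled to library size, in NOD.B10 and 9037 and 9232 CPM in BL/10. All 12 T cell markers were called lower, and their summed level was 13.1 and 7.24 CPM in NOD.B10, against 395 and 468 CPM in BL/10. Of 4 tested erythroid markers 3 were called lower, with 10.3 and 4.27 CPM summed in NOD.B10 and 241 and 475 CPM in BL/10, and Slc4a1 was at 0 reads in NOD.B10 and Hba-a1 in both strains. Of 6 proliferation genes 3 were called lower, with 147 and 139.9 CPM summed in NOD.B10 and 214 and 260.3 CPM in BL/10. Of the tested markers of other cells, 3 of 3 for natural killer cells, 2 of 2 for neutrophils, 2 of 5 for dendritic cells and 1 of 6 for macrophages were called lower and 0 higher. Fewer cells of a type and less RNA per cell cannot be told apart in bulk samples, and the part of these other cells in the results below was not tested.

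Few members of the chain were called different between the strains. The shares of all tested genes given beside them are not matched for level or length. Whether the spread between the BL/10 libraries, given below, lowered the number of calls was not tested. Of the 93 members, 91 had at least 1 read and 88 passed the filter on low counts. Genes were called at a Benjamini-Hochberg adjusted p under 0.05 over all tested genes, by the quasi-likelihood test of edgeR. Of the 88, 0 were called higher and 2 were called lower in NOD.B10, while of all 13075 genes tested 15.2% were called, 6.55% higher and 8.63% lower. DESeq2 also called 0 members higher and 2 lower (6.4% and 8.68% of all genes), and so did limma-voom (6.42% and 8.34%). The same counts came from a fit with a replicate block (5.81% and 7.97%) and from one with the length trend of each library removed (6.27% and 9.35%). With no filter on low counts 0 members were higher and 4 lower (6.54% and 8.61%). Leaving out a BL/10 library moved the counts further, to 0 higher and 9 lower without the first (5.54% and 7.48%) and to 6 higher and 2 lower without the second (6.6% and 7.89%). At an unadjusted p under 0.05 there were 7 members, or 7.95%, against 26.8% of all genes tested. The median log2 fold change of the tested members, NOD.B10 over BL/10, was −0.051, beside −0.0032 over all tested genes, and the members' median lay between −0.23 and 0.099 with 1 library left out and at 0.0044 with the length trend removed. The median size of the log2 fold change, without its sign, was 0.13 for the members and 0.23 for all tested genes. The CPM of the strains did not overlap for 23 members, 7 higher and 16 lower in NOD.B10, which is 26.1% of those tested, against 55.6% of all genes tested, 27.9% higher and 27.7% lower. For 71 of the 88 the 95% interval of the log2 fold change lay within −1 and 1, that is, within a 2-fold difference. These are 80.7% of the tested members, against 64.9% of all genes tested. For 45 of the 88 it lay within a 1.5-fold difference.

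The summed level of all members was 3588 and 3661 CPM in NOD.B10 and 3616 and 4242 CPM in BL/10. The first BL/10 library lay between the NOD.B10 libraries and the second stood above all others. Without Cox7a2l and Atp5sl, the called members described below, the sums were 3471 and 3545 CPM in NOD.B10 and 3383 and 4024 CPM in BL/10. The BL/10 libraries then enclosed those of NOD.B10. Sums over members are given without a test, since 2 against 2 libraries cannot reach an exact two-sided permutation p under 0.33.

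**Figure D1:**
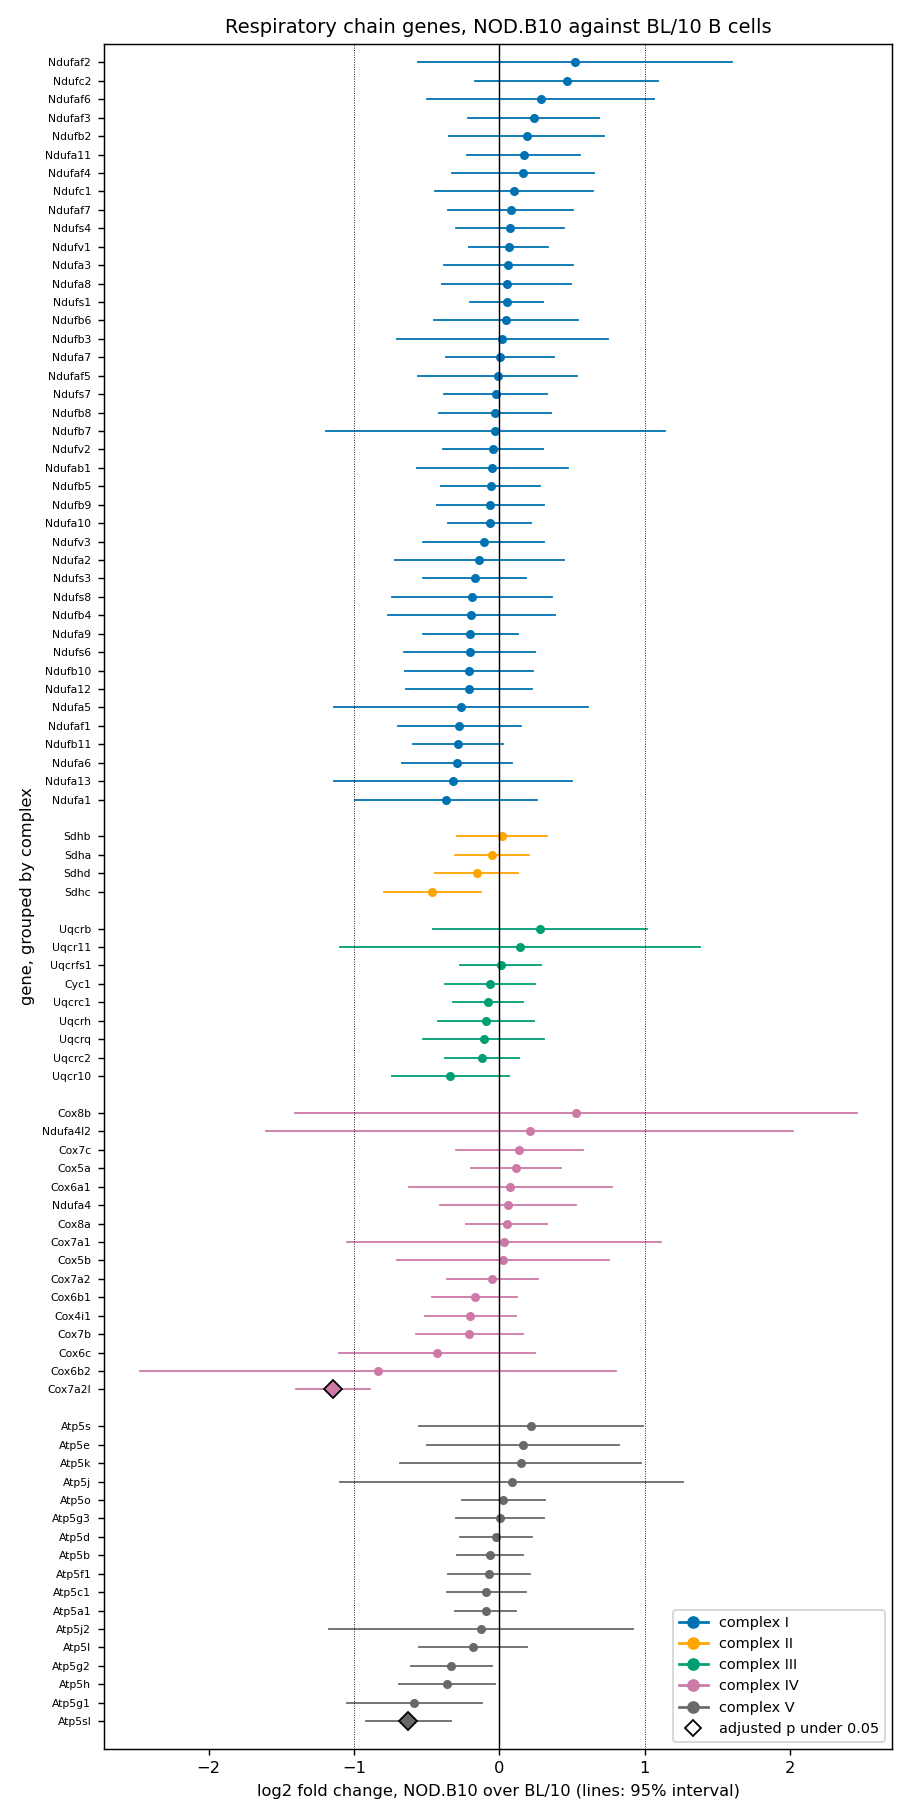
Log2 fold change of the tested members reported here (horizontal axis, NOD.B10 over BL/10) with its 95% interval, grouped by complex, with diamonds for genes called at an adjusted p under 0.05 and dotted lines at a 2-fold difference. Cox7a2l at −1.15 and Atp5sl at −0.63 are the diamonds, and the other members scatter around 0.

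Cox7a2l, also known as SCAF1 or COX7RP, showed the clearest difference. It is a relative of the complex IV subunit Cox7a2 that joins complex III to complex IV in respiratory supercomplexes, and its protein is known to differ in length between inbred mouse strains. The labels give no Cox7a2l genotype for BL/10 or NOD.B10. Cox7a2l (chromosome 17, 83501917 to 83514333, GRCm38.p6) had 73.2 and 64.8 CPM in NOD.B10 and 154 and 151 CPM in BL/10. Every NOD.B10 library lay below every BL/10 library, and the gap was far wider than the difference within either strain. Its mean fell to 69.0 ± 5.88 CPM in NOD.B10, against 153 ± 2.54 CPM in BL/10 (SD, n = 2 each), a 2.21-fold lower mean CPM (edgeR log2 fold change −1.15, SE 0.117, adjusted p = 1.78e-05). Over the main fit and 16 alternatives the fold was between 2.09 and 2.37, with an adjusted p of at most 9.09e-05. Per length, Cox7a2l stood at 60.0 CPM per kilobase of gene length (RPKM) in NOD.B10 and 133 RPKM in BL/10. Its relatives in the Cox7a family were not called: Cox7a2, the widely expressed subunit, had 29.9 and 33.2 CPM in NOD.B10 and 32.8 and 32.6 CPM in BL/10 (edgeR log2 fold change −0.049, adjusted p = 0.886). Of the 50-base words in the coding transcripts of Cox7a2l, 17.8% also occur in 1 other annotated gene, a pseudogene, so a part of its reads could be counted elsewhere or not at all.

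Atp5sl was the other member that was called. Despite its symbol, which comes from a likeness to Atp5s, its product is an assembly factor of the distal membrane arm of complex I, and the gene is now named Dmac2. Atp5sl (chromosome 7, 25619414 to 25625550) had 43.3 and 51.2 CPM in NOD.B10 and 78.9 and 67.1 CPM in BL/10. The groups did not overlap. Its mean fell to 47.2 ± 5.59 CPM in NOD.B10, against 73.0 ± 8.36 CPM in BL/10 (SD, n = 2 each), a 1.55-fold lower mean CPM (edgeR log2 fold change −0.63, SE 0.135, adjusted p = 0.00675). None of its 50-base words occurred in another annotated gene. Over the same alternatives the fold ran from 1.42 to 1.69 and the adjusted p reached at most 0.0301. In the same libraries the summed levels of T cell, erythroid and proliferation markers were lower in NOD.B10, with the values given above. Their part in this or any other difference described here was not tested.

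**Figure D2:**
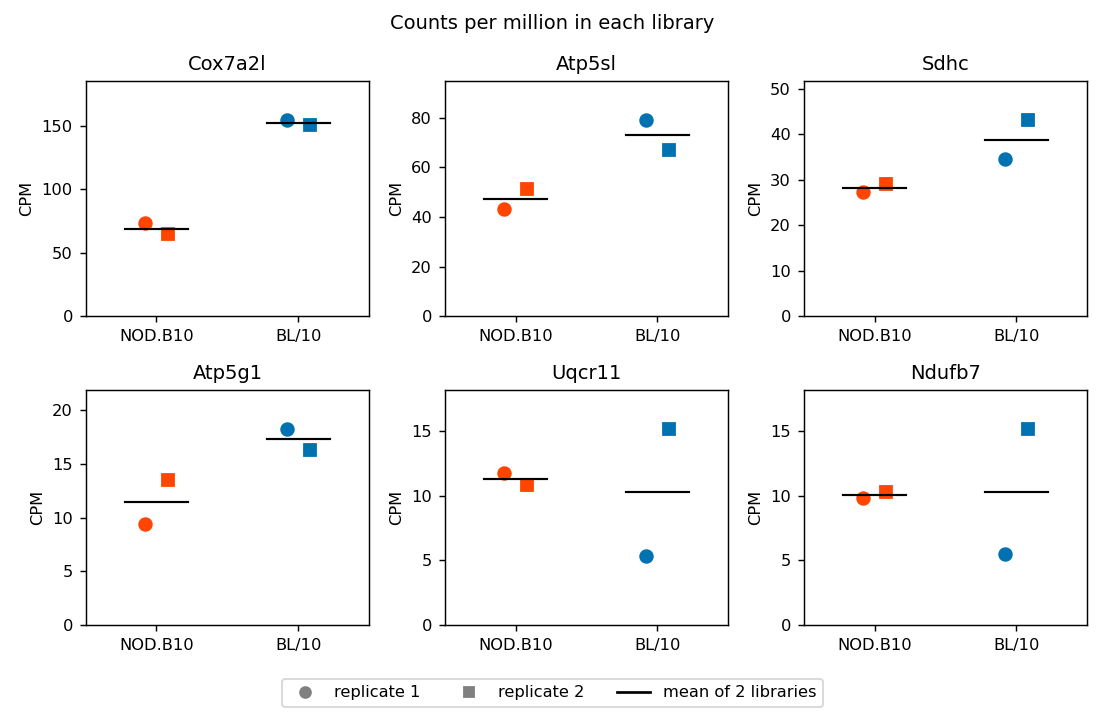
CPM of 6 members in each library (vertical axis from 0), NOD.B10 left of BL/10, circles for replicate 1, squares for replicate 2 and a bar for the mean of 2 libraries. Cox7a2l, Atp5sl, Sdhc and Atp5g1 do not overlap between strains, while the BL/10 libraries of Uqcr11 (5.37 and 15.2 CPM) and Ndufb7 (5.47 and 15.2 CPM) lie on either side of both NOD.B10 libraries.

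Promoter sequences are shown for the 2 members that were called and for 2 others, Cox6a1 and Uqcr11. The log2 difference between their BL/10 libraries was 0.85 and 1.49, while 10 members differed by more than 1. Transcription of nuclear respiratory genes is known to involve NRF1, GABPA (also called NRF-2) and YY1. Cox6a1 and Uqcr11 both hold NRF1 and GABPA motifs and were not chosen by rank, so they do not stand for the members in general. Each sequence is the 250 bases before the annotated start (RefSeq, GRCm38.p6), 5′ to 3′ on the strand of the gene, with motif matches that lie wholly before the start in capitals. The windows are chr17:83514334-83514583 on the minus strand for Cox7a2l, chr7:25619164-25619413 on the plus strand for Atp5sl, chr5:115348959-115349208 on the minus strand for Cox6a1 and chr10:80406822-80407071 on the minus strand for Uqcr11.
Cox7a2l: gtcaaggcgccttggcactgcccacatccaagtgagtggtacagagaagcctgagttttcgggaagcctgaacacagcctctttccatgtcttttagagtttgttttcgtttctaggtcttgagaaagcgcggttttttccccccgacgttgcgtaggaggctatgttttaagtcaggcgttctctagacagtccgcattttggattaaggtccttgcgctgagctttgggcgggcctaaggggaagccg
Atp5sl: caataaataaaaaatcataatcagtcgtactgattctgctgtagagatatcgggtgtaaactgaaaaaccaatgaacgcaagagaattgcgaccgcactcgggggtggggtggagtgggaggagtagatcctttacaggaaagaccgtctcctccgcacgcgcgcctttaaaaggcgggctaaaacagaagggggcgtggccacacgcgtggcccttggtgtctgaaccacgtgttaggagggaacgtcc
Cox6a1: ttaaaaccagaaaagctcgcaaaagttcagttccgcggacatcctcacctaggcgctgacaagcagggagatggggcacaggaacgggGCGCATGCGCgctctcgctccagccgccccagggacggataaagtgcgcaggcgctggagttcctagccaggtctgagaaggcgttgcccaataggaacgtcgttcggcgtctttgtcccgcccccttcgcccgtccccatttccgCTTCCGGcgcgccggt
Uqcr11: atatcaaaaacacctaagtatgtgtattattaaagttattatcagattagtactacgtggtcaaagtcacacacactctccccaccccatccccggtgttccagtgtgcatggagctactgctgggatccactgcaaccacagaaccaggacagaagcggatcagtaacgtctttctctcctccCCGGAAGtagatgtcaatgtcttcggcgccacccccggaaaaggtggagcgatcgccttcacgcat
The capitals mark GCGCATGCG (NRF1), which overlaps itself on the opposite strand, and the reverse complement of CCGGAAG (GABPA) in Cox6a1, and CCGGAAG in Uqcr11. The Uqcr11 window also held the reverse complement of GCGCATGCG across the start, of which the printed sequence shows the beginning in lower case. Motifs were searched on both strands for letters chosen with these data in view, in windows of 300 bases, 250 before and 50 after the start. RefSeq windows were found for 76 of the 93 members, 82 windows in all. GCGCATGCG was in 12.2% of the member windows and 1.75% of all 32851 windows. CCGGAAG was in 20.7% and 8.86%, and AAGATGG (YY1) in 15.9% and 6.34%. The Cox7a2l window held none of the 3 motifs, and Atp5sl has 2 annotated starts, whose windows overlap and hold the same AAGATGG. It lies after the start whose upstream bases are printed, and before the other start. These matches are descriptions of letters and do not mark binding.

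In complex I, 0 of 42 tested members were called, with a median log2 fold change of −0.036 and a range of −0.37 to 0.52. Summed over the complex, the level was 882 and 908 CPM in NOD.B10 and 834 and 1051 CPM in BL/10, so the BL/10 libraries enclosed those of NOD.B10. The core subunits carry the flavin, the iron-sulphur clusters and the quinone site. Ndufs1, the largest subunit, had 67.9 and 70.3 CPM in NOD.B10 and 65.7 and 67.7 CPM in BL/10, with a 95% interval of −0.20 to 0.30 for the log2 fold change. Ndufv1, which binds NADH and the flavin, had 46.2 and 45.6 CPM in NOD.B10 and 43.3 and 44.4 CPM in BL/10. The core subunits Ndufs3, Ndufs7, Ndufs8 and Ndufv2 had log2 fold changes of −0.17, −0.025, −0.19 and −0.044, of which Ndufs8 had a BL/10 spread of 23.7 and 40.3 CPM.

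Of the 29 accessory subunits of complex I, 28 were tested and 27 overlapped between strains. Their log2 fold changes ran from −0.37 for Ndufa1, a membrane arm subunit, to 0.46 for Ndufc2. Ndufa1 had 10.5 and 10.3 CPM in NOD.B10 and 9.29 and 17.6 CPM in BL/10. Ndufs5 did not pass the filter, with 0 reads in NOD.B10 and 3 and 0 reads in BL/10, although its protein is a regular part of the complex. Of its 50-base words 21.7% are shared with 1 annotated pseudogene. The 7 assembly factors had a median log2 fold change of 0.16, and 4 of them lay above BL/10 in both NOD.B10 libraries without a call, and 27.9% of all tested genes lay so, called or not. Ndufaf2, a chaperone of late assembly, had the highest log2 fold change of the complex at 0.52, on 36 and 50 reads in NOD.B10 and 31 and 42 reads in BL/10 (edgeR adjusted p = 0.574).

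Complex II, which also serves the citric acid cycle, had 302 and 314 CPM summed in NOD.B10 and 299 and 359.9 CPM in BL/10, and 0 of its 4 members were called. Sdhc, a membrane anchor that helps to bind haem and ubiquinone, came closest of all uncalled members to a call. It had 27.3 and 29.1 CPM in NOD.B10 and 34.5 and 43.1 CPM in BL/10 without overlap (edgeR log2 fold change −0.46, SE 0.154, adjusted p = 0.0634). The other anchor, Sdhd, had 35.7 and 36.7 CPM in NOD.B10 and 40.2 and 40.5 CPM in BL/10 (log2 fold change −0.16, adjusted p = 0.516 by edgeR). Sdha, the flavoprotein that oxidises succinate, had 196 and 202 CPM in NOD.B10 and 185 and 227 CPM in BL/10. Sdhb, the iron-sulphur subunit, had 43.4 and 46.5 CPM in NOD.B10 and 39.4 and 49.4 CPM in BL/10. For Sdha and Sdhb the BL/10 libraries lay on either side of both NOD.B10 libraries.

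Complex III had 0 of 9 members called, a median log2 fold change of −0.080 and sums of 406 and 407 CPM in NOD.B10 and 408 and 447 CPM in BL/10. Uqcrc1, a core structural subunit and the highest of the complex in CPM, which is not corrected for length, had 113 and 109.9 CPM in NOD.B10 and 114 and 122 CPM in BL/10. Cyc1, cytochrome c1, had 43.4 and 46.0 CPM in NOD.B10 and 41.3 and 52.2 CPM in BL/10. Uqcrfs1, the Rieske iron-sulphur protein, had 50.5 and 53.1 CPM in NOD.B10 and 55.4 and 47.5 CPM in BL/10. Uqcrc2, the partner of Uqcrc1, had a log2 fold change of −0.12. The extremes were Uqcr10 at −0.34 and Uqcrb at 0.28, small subunits of which Uqcrb had 13.6 and 14.2 CPM in NOD.B10 and 7.36 and 15.6 CPM in BL/10.

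Complex IV had 1 of 16 tested members called, Cox7a2l, described above, and its sums were 532 and 506 CPM in NOD.B10 and 561 and 688 CPM in BL/10. Its 11 widely expressed subunits had a median log2 fold change of 0.025 and summed levels of 454 and 439 CPM in NOD.B10 and 403 and 533 CPM in BL/10. Cox4i1, a regulatory subunit, had 97.4 and 86.2 CPM in NOD.B10 and 90.7 and 120.1 CPM in BL/10. Cox6a1 had 49.5 and 44.2 CPM in NOD.B10 and 31.8 and 57.2 CPM in BL/10, and Cox6b1, which faces the intermembrane space, had 56.2 and 58.8 CPM in NOD.B10 and 57.2 and 72.2 CPM in BL/10. Cox7b and Cox8a had log2 fold changes of −0.21 and 0.050. Ndufa4, first assigned to complex I and now known as a subunit of complex IV, had 29.1 and 26.3 CPM in NOD.B10 and 20.4 and 32.7 CPM in BL/10.

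The isoforms of complex IV that are restricted to muscle, lung, testis or low oxygen were low or at 0 in both strains, and 4 of 8 were tested. Cox7b2 and Cox8c had 0 reads in all libraries, which allows a level of up to 0.0669 CPM in NOD.B10 and 0.0541 CPM in BL/10 (3 reads over the group, counting error only). Cox4i2, the lung and low-oxygen isoform, had 0 reads in NOD.B10 and 0 and 2 reads in BL/10, and Cox6a2, of heart and skeletal muscle, had 0 reads in NOD.B10 and 0 and 12 reads in BL/10. Cox7a1, also of muscle, was the highest, with 58 and 35 reads in NOD.B10 and 76 and 43 reads in BL/10. Cox6b2 of testis had 5 and 11 reads in NOD.B10 and 20 and 15 reads in BL/10, Cox8b, with the highest log2 fold change of the complex at 0.52, had 11 and 13 reads in NOD.B10 and 3 and 17 reads in BL/10, and Ndufa4l2, a hypoxia-inducible relative of Ndufa4, had 11 and 7 reads in NOD.B10 and 13 and 7 reads in BL/10. Of 6 skeletal muscle markers, 2 passed the filter and 0 were called, and their summed level was 4.30 and 5.60 CPM in NOD.B10 and 6.11 and 6.67 CPM in BL/10.

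Complex V had a summed level of 1466 and 1526 CPM in NOD.B10 and 1514 and 1696 CPM in BL/10. Of its 17 members 1 was called, Atp5sl, which by function belongs to complex I assembly, so 0 of the 15 subunits of F1, Fo and stalk were called. The catalytic subunit Atp5b had 436 and 455 CPM in NOD.B10 and 433 and 499 CPM in BL/10, with a 95% interval of −0.29 to 0.16 for the log2 fold change. Its partner Atp5a1 had 423 and 441 CPM in NOD.B10 and 461 and 461 CPM in BL/10 without overlap (log2 fold change −0.094, adjusted p = 0.607 by edgeR). Atp5c1, the rotating central stalk, had a log2 fold change of −0.090. The ring of Fo is built from a single mature protein encoded by 3 genes. Atp5g1 had 9.43 and 13.5 CPM in NOD.B10 and 18.3 and 16.3 CPM in BL/10 (edgeR log2 fold change −0.59, SE 0.215, adjusted p = 0.0912). Atp5g2 had 36.2 and 35.5 CPM in NOD.B10 and 45.0 and 45.1 CPM in BL/10 (edgeR log2 fold change −0.33, adjusted p = 0.114). Atp5g3 had 53.3 and 46.8 CPM in NOD.B10 and 45.0 and 54.8 CPM in BL/10. Atp5g1 and Atp5g2 did not overlap between the strains and Atp5g3 did. Atp5s, a coupling factor by name, had the highest log2 fold change of the complex at 0.22, at 3.32 and 3.92 CPM in NOD.B10 and 3.48 and 2.75 CPM in BL/10.

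Between genes, levels were compared per length. Among the classes of more than 1 gene the F1 subunits had the highest median, 118 RPKM in NOD.B10 and 119 RPKM in BL/10, led by Atp5b with 237 and 248 RPKM in the strain means. The widely expressed subunits of complex IV had medians of 55.0 RPKM in NOD.B10 and 50.8 RPKM in BL/10, and the core subunits of complex I 28.4 and 29.3 RPKM. Assembly factors of complex I stood lower, at 5.005 RPKM in NOD.B10 and 4.49 RPKM in BL/10. Within complex IV, Cox4i1, Cox8a, Cox6b1 and Cox6a1 stood above Cox7a2l in mean RPKM in NOD.B10, and Cox4i1 did in BL/10.

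**Figure D3:**
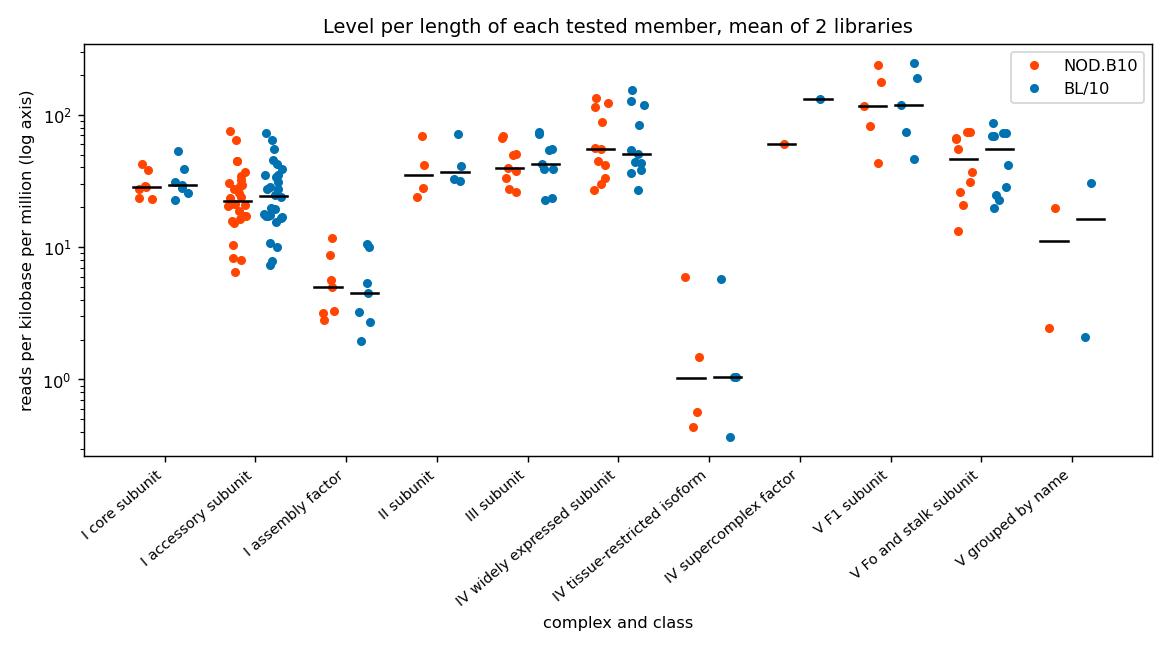
Level per length (RPKM, log axis, mean of 2 libraries) of each tested member by complex and class, NOD.B10 in orange-red left of BL/10 in blue, with bars for medians. Among classes of more than 1 gene, the strain medians lie furthest apart on this axis for complex V grouped by name. They are 11.1 RPKM in NOD.B10 and 16.3 RPKM in BL/10. The supercomplex factor Cox7a2l stands apart, at 60.0 RPKM in NOD.B10 and 133 RPKM in BL/10.

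The BL/10 libraries differed from each other in many short members. The log2 difference of replicate 2 over replicate 1 had a median of 0.040 in NOD.B10 and 0.29 in BL/10 over the 88 tested members, and 48 members in NOD.B10 and 76 in BL/10 were higher in replicate 2. A difference above 1 on the log2 scale, in either direction, was seen for 1 member in NOD.B10 and 10 members in BL/10, or 1.14% and 11.4% of those tested. Over the other tested genes of all lengths such differences were found for 7.37% in NOD.B10 and 4.64% in BL/10. Under 600 bases the shares were 3.03% and 24.2% of members, and 19% and 13.5% of other genes. From 600 to under 1000 bases they were 0% and 4.55% of members, and 11.1% and 9.45% of other genes. Other genes under 600 bases thus differed more often than other genes of all lengths in both strains, and more often in NOD.B10 than in BL/10. Members under 600 bases differed more often in BL/10. Uqcr11, a small subunit of complex III with a deposited length of 436 bases, had 11.8 and 10.8 CPM in NOD.B10 and 5.37 and 15.2 CPM in BL/10. Ndufb7, an accessory subunit of 533 bases, had 9.84 and 10.3 CPM in NOD.B10 and 5.47 and 15.2 CPM in BL/10. For both genes the second BL/10 library held over 2.7 times the level of the first, and the NOD.B10 libraries lay between them. In NOD.B10 the largest replicate differences were those of Cox7a1, Ndufa4l2 and Ndufaf4, of which Ndufaf4, with 277 and 562 reads, was the one with more than 100 reads in each library.

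The replicate difference moved with gene length. The 33 members under 600 bases had a median log2 difference of −0.12 in NOD.B10 and 0.55 in BL/10, and 32 of the 33 were higher in the second BL/10 library. The 22 members of 600 to under 1000 bases had medians of 0.077 in NOD.B10 and 0.25 in BL/10, and the 25 of 1000 to under 2000 bases 0.071 and 0.18. Other tested genes under 600 bases, 400 in number, had medians of −0.18 in NOD.B10 and 0.24 in BL/10, and the 8881 of 2000 bases or more had 0 in NOD.B10 and −0.043 in BL/10. Across the 88 members Spearman's rho between length and the replicate difference was 0.325 in NOD.B10 and −0.488 in BL/10, and across the 12987 other genes −0.029 and −0.190. These are correlations across genes that share the same libraries, given as descriptions. The members are short, with a median length of 746.5 bases against 2762 bases over all tested genes. In the same libraries Rn45s, the 45S ribosomal RNA precursor, took 1.18% and 1.69% of reads in NOD.B10 and 2.11% and 4.10% in BL/10, and its part in the replicate difference was not tested.

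**Figure D4:**
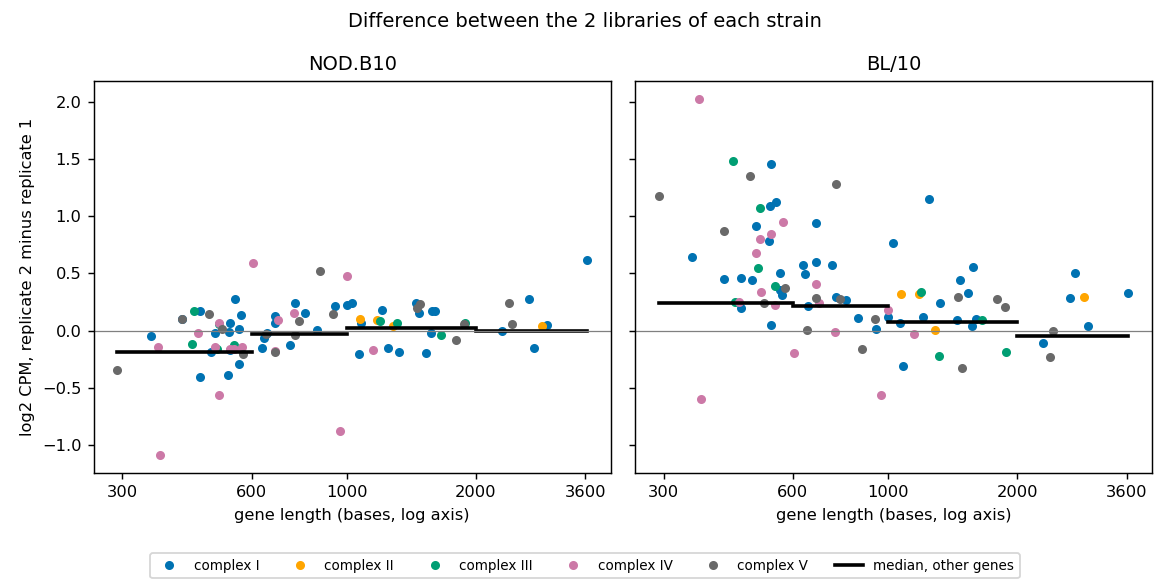
Log2 CPM of replicate 2 minus replicate 1 (vertical axis) against gene length in bases (log axis) for the 88 tested members, NOD.B10 in the left panel and BL/10 in the right, with black bars for the median of all other tested genes in each length range. Under 600 bases the members have a median of −0.12 in NOD.B10 and 0.55 in BL/10, where 32 of 33 lie above 0.

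The direction of small differences depended on which BL/10 library served as the control. Without the first BL/10 library the median log2 fold change of the members was −0.23, with 71 of 88 negative, 0 called higher and 9 called lower, beside 5.54% and 7.48% of all genes in that fit. Without the second BL/10 library the median was 0.099, with 61 of 88 positive, 6 called higher and 2 called lower, beside 6.6% and 7.89% of all genes. The sign differed between these fits for 50 of the 88 members. Cox7a2l and Atp5sl were the 2 members called in both fits. With 1 library left in a strain, the spread comes from the other strain's pair, and the lone library is assumed to vary alike. The members called lower in the first of these fits alone were Sdhc, Ndufs8, Ndufa1, Ndufa13, Cox4i1, Cox6c and Atp5h, and those called higher in the other were Uqcr11, Uqcrb, Cox6a1, Atp5e, Atp5j and Ndufc2. Uqcr11 had a log2 fold change of −0.43 against replicate 2 and of 1.07 against replicate 1. Without a NOD.B10 library the members gave 0 higher and 3 lower in either case, with Cox6c added without replicate 1 (4.3% and 9.01% of all genes) and Atp5g1 without replicate 2 (7.01% and 8.13%).

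**Figure D5:**
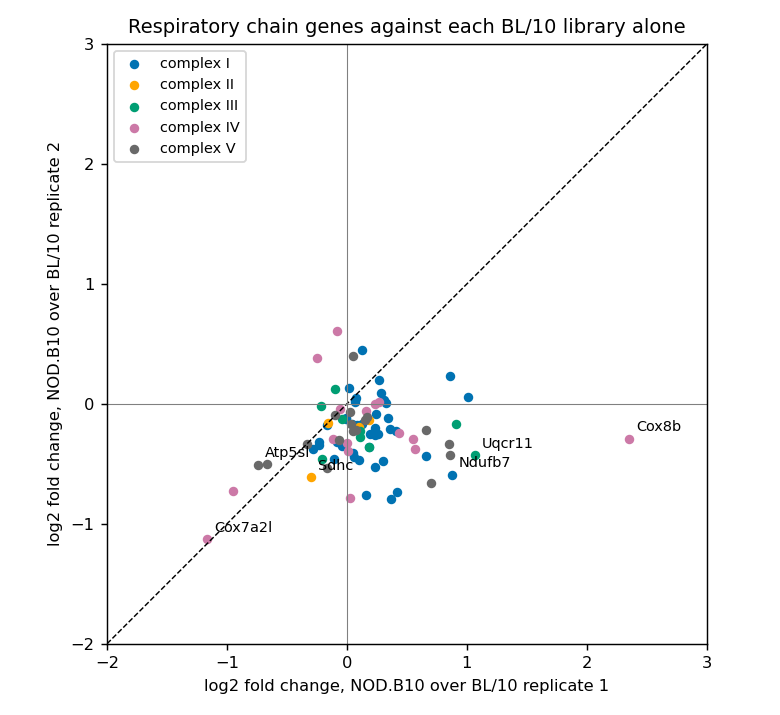
Log2 fold change of each tested member with BL/10 replicate 1 as the only control (horizontal axis) and with BL/10 replicate 2 as the only control (vertical axis), with a dashed line of equality. Most points lie below the line, and Uqcr11 changes sign between 1.07 and −0.43. In the lower left Cox7a2l lies near the line, and Atp5sl lies above it, at −0.75 against replicate 1 and −0.51 against replicate 2.

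The other genes of the pathway were read from lists of assembly factors, electron carriers, citric acid cycle enzymes, carriers and regulators outside the naming rule. Of 114 tested, 4 were called higher and 4 lower, or 7.02%, beside 15.2% of all genes. Among assembly factors of complexes II to V, 1 of 33 rose and 1 fell. Lyrm7, which inserts the Rieske protein Uqcrfs1 into complex III, had 0.933 and 0.235 CPM in NOD.B10 and 9.96 and 11.6 CPM in BL/10. It fell 18.5-fold in its mean (edgeR log2 fold change −4.28, SE 0.474, adjusted p = 9.09e-05), on 24 reads in all in NOD.B10, and was called in each of the 17 fits, with log2 fold changes of −5.50 to −3.52. The RNA of its client Uqcrfs1 had a log2 fold change of 0.0090 with a 95% interval of −0.27 to 0.29. Insertion acts on the Uqcrfs1 protein, which RNA counts do not measure. Ttc19, another complex III factor, had 41.2 and 37.2 CPM in NOD.B10 and 26.8 and 29.8 CPM in BL/10 (edgeR adjusted p = 0.0445), a call lost in 8 of the alternatives (adjusted p of 0.0502 to 0.265).

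In the citric acid cycle 1 of 18 genes rose and 2 fell, beside 6.55% called higher and 8.63% called lower among all genes tested. Suclg2, the GTP-forming subunit of succinyl-CoA ligase, had 5.80 and 8.54 CPM in NOD.B10 and 22.7 and 25.3 CPM in BL/10, 3.35-fold lower (edgeR log2 fold change −1.73, SE 0.218, adjusted p = 1.09e-04). Suclg1, its shared partner subunit, had 35.6 and 33.2 CPM in NOD.B10 and 50.3 and 63.4 CPM in BL/10 (edgeR log2 fold change −0.72, adjusted p = 0.00403). Fh1, fumarase, had 106 and 121 CPM in NOD.B10 and 81.4 and 74.5 CPM in BL/10 (edgeR log2 fold change 0.54, adjusted p = 0.00788), a call lost with NOD.B10 replicate 2 left out (adjusted p = 0.0578). Of 20 electron carrier and coenzyme Q genes 2 rose and 0 fell, beside the same shares of all genes. Sqrdl, sulphide quinone reductase, had 4.20 and 3.92 CPM in NOD.B10 and 0.101 and 0.543 CPM in BL/10 (edgeR log2 fold change 3.67, SE 0.634, adjusted p = 0.00164), and over the alternatives its log2 fold change ran from 2.89 to 5.25. Pdss2, of coenzyme Q synthesis, had 19.1 and 15.4 CPM in NOD.B10 and 11.2 and 8.87 CPM in BL/10 (edgeR adjusted p = 0.0245), a call that was lost with BL/10 replicate 2 left out (adjusted p = 0.106) and with NOD.B10 replicate 1 left out (adjusted p = 0.144).

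Of 21 regulators of mitochondrial biogenesis 0 rose and 1 fell, beside 6.55% and 8.63% of all genes tested. Ppargc1a, the coactivator PGC-1 alpha, had 0.984 and 1.06 CPM in NOD.B10 and 4.93 and 4.22 CPM in BL/10, 4.48-fold lower (edgeR log2 fold change −2.16, SE 0.406, adjusted p = 0.00264). The summed levels of T cell and erythroid markers were lower in the same NOD.B10 libraries, with the values given above. The complex I assembly factors outside the rule (12 tested), the genes associated with the ATP synthase (3) and the nucleotide and phosphate carriers (7) gave 0 calls in either direction by edgeR.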

How the data were processed

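The authors deposited a table of raw read counts per gene symbol with a gene length in bases, 1 column per library, not normalised. HISAT2 2.1.0, SAMtools 1.3, featureCounts and Subread 1.6.5 are named, with build mm10, in the submitters' processing notes. Annotation, strand and multi-mapping settings are not given in the sources used here, so 24 of the 93 members that share at least 10% of their 50-base words with another GENCODE gene, and 32 whose exons overlap another gene, carry an uncertain count.

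Groups were compared with edgeR 4.0.16 in R 4.3.3 (TMM factors, filterByExpr at 10 reads and a total of 15, glmQLFit with robust dispersion, glmQLFTest, two-sided) over all 13075 genes that passed. P-values were Benjamini-Hochberg adjusted over those genes. CPM and RPKM use TMM-scaled library sizes and the deposited lengths, and replicate differences are log2 CPM with a prior count of 2. The SE is the size of the unshrunken log2 fold change over the root of the F statistic, and 95% intervals use its degrees of freedom. The procedure was tested on simulated counts. These were drawn for each gene separately with dispersions estimated from these libraries, so they hold no replicate difference linked to gene length. DESeq2 1.42.0 and limma 3.58.1 were alternatives, with other scalings, filters, a replicate block and each library left out.

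Named members follow a rule: called members, the highest and lowest log2 fold change and the highest mean CPM of each complex, core subunits, tissue-restricted isoforms with their partners, the 3 largest replicate differences of each strain and members with 0 reads. Other pathway genes are named where called, up to 4 a list. Members named outside the rule were picked after their values were seen. Some items are not reported here. The members and lists were chosen with earlier results of these data known. Symbols were matched to RefSeq GRCm38.p6, 3 members through a synonym.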

Additional observations from a re-analysis of the deposited data

How the results depend on the processing

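The calls of Cox7a2l and Atp5sl held in all 16 alternatives. The number of members called higher stayed at 0 except without the second BL/10 library, and leaving out 1 library gave 0 to 6. The number called lower was 2, or 4 with no filter, where Sdhc and Atp5g1 were added (edgeR adjusted p = 0.0246 and 0.0387), and leaving out 1 library gave 2 to 9. Leaving out 1 library moved the median log2 fold change of all members between −0.23 and 0.099, and that of complex IV between −0.29 and 0.084. The labels give both strains replicates 1 and 2, but nothing says that a number marks a shared batch, and the replicate deviations of the strains correlated at −0.017 across genes. With a replicate block 0 members were called higher and 2 lower, with a median log2 fold change of −0.047. It changed no call of a member. Removing the length trend of each library, an alternative chosen after the data were seen, also gave 0 higher and 2 lower, with a median of 0.0044. The median log2 fold change of all tested genes lay between −0.036 (no filter) and 0.0068 (without the first BL/10 library). The 95% intervals of the 4 tested tissue-restricted isoforms all reach past a 2-fold difference, so such differences were not detectable at their depth.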

Other observations

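Genes near the 2 called members were counted after their values were seen. They were matched by current RefSeq symbol only, so neighbours deposited under an older symbol are not counted. Within 1000000 bases on either side of Cox7a2l, 5 of 43 RefSeq genes were matched and tested. Of these 1 was called higher and 2 lower in NOD.B10. Around Atp5sl 33 of 92 were matched and tested, of which 3 were called higher and 8 lower, beside 15.2% of all genes tested.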
